A study of Canis lupus familiaris with 22 samples.

Results

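Regulatory T cells are lymphocytes that restrain other immune cells, and allergen-specific immunotherapy (ASIT) is held to act in part by raising tolerance to the allergen through such cells. Their identity is set by the transcription factor *FOXP3*, they take up IL-2 through a high-affinity receptor that contains the IL2RA chain, and they act on other cells through the cytokines IL-10 and TGF-β and through surface molecules such as CTLA4. In canine atopic dermatitis (cAD), an itching skin disease of dogs with an allergic background, these genes can be read in blood, where regulatory T cells are a small part of all leukocytes.

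The genes looked for, 10 in all, were the transcription factors *FOXP3* and *IKZF2*, the cytokines *IL10* and *TGFB1*, the receptor genes *IL10RA*, *TGFBR1*, *TGFBR2* and *IL2RA*, and the checkpoint genes *CTLA4* and *LAG3*. A probe was taken when its gene name in the scanner files was that of a member. This gave 16 of the 43603 different probes of the array, for 9 of the 10 genes. *TGFBR2* had 3 probes, *CTLA4*, *IKZF2*, *IL2RA*, *TGFB1* and *TGFBR1* had 2 each, and *FOXP3*, *IL10* and *IL10RA* had 1 each. No probe carried the name *LAG3*. A single probe with a transcript identifier in place of a gene name is described in the files as lymphocyte-activation gene 3; it was added after its description was seen and is not counted among the 16.

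The arrays came from venous blood of client-owned dogs of various breeds, namely 8 healthy control dogs (ctrl) and 7 cAD patients sampled before ASIT and again after 6 months of ASIT with subcutaneous allergen extracts. Each of the 22 arrays was hybridized with the RNA of 1 dog in Cy5 and with a common reference in Cy3, a pool of RNA from 13 healthy dogs, and no array had the dyes exchanged. Values are log2 ratios of Cy5 to Cy3, so 0 means that the dog's signal equalled that of the reference. The sample labels name whole blood, while the methods of the study name peripheral blood nuclear cells. In such bulk samples, fewer cells of a type and less RNA per cell cannot be told apart.

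Signal over background was lower on most arrays of the cAD patients, those on slide 3 being nearer to ctrl, with 3 of these 4 at 80.8% to 87.5% of probes with Cy5 well above background. All 16 member probes had Cy5 well above background on each of the 8 ctrl arrays, whereas the number was 13 to 16 (median 15) before ASIT and 14 to 16 (median 14) after ASIT. The spot of dog 3 that was left out as an outlier (*TGFBR2*) is not counted here, although its Cy5 was well above background; with it, the median before ASIT was 16. Over all probes, the median share with Cy5 well above background was 87.8% in ctrl, 62.5% before ASIT and 61.6% after ASIT. For the Cy3 reference, the same RNA on every array, these medians were 81.6%, 58% and 56.8%. The ctrl arrays lay on slides 1 and 2 and had a scan of their own, so disease cannot be told apart from slide or scan in the comparisons with ctrl. Slide 3 held both arrays of dogs 1 and 2, and slide 4 held both arrays of dog 3 and the first array of dog 4. The other cAD arrays lay on slide 5 (before ASIT) and slide 6 (after ASIT).

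The comparison of cAD patients before ASIT with healthy dogs (0 vs. ctrl) asks whether tolerance genes differ in the disease. None of the 16 member probes passed limma at a Benjamini-Hochberg adjusted p of 0.05, where 0.0418% of the 38290 tested probes did. Their differences ran from -0.51 to 0.55 on the log2 scale, 9 higher and 7 lower in the patients. The median absolute difference was 0.13 for the members and 0.20 for all tested probes. Before adjustment, 1 member probe had a limma p under 0.05, compared with 11.7% of all tested probes, and the methods' test gave 0 at the same limit, compared with 6.45% of all tested probes. The largest positive difference belonged to *IL10* and the largest negative one to the second probe of *IL2RA*.

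After 6 months of ASIT the same dogs were again compared with ctrl (6 months vs. ctrl), which shares its controls with the first comparison. Of the 16 member probes, 0 passed limma after adjustment, as did 0% of all tested probes. Before adjustment 1 of them, the second probe of *IKZF2*, had a limma p under 0.05, compared with 7.2% of all tested probes, and the methods' test gave 0, compared with 2.83%. The differences ran from -0.48 to 0.25, with 6 probes higher and 10 lower in the treated dogs, and the median absolute difference was 0.17, compared with 0.18 for all tested probes.

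Over the course of ASIT (0 vs. 6 months, before minus after), 0 member probes passed limma after adjustment, as did 0% of all tested probes. At an unadjusted limma p of 0.05, 0 of the 16 passed, compared with 5.96% of all tested probes, and the methods' test also gave 0, compared with 2.6%. Both tests, and the exact permutation tests given below for this comparison, treated both arrays of a dog as independent. The sign-flip tests below are paired by dog. The differences ran from -0.21 to 0.45, 10 higher before ASIT and 6 higher after it. The groups overlapped in each of the 3 comparisons for each of the 16 probes. The share of all tested probes with such overlap was not computed, so this is a description and not a trait of the members.

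**Figure D1:**
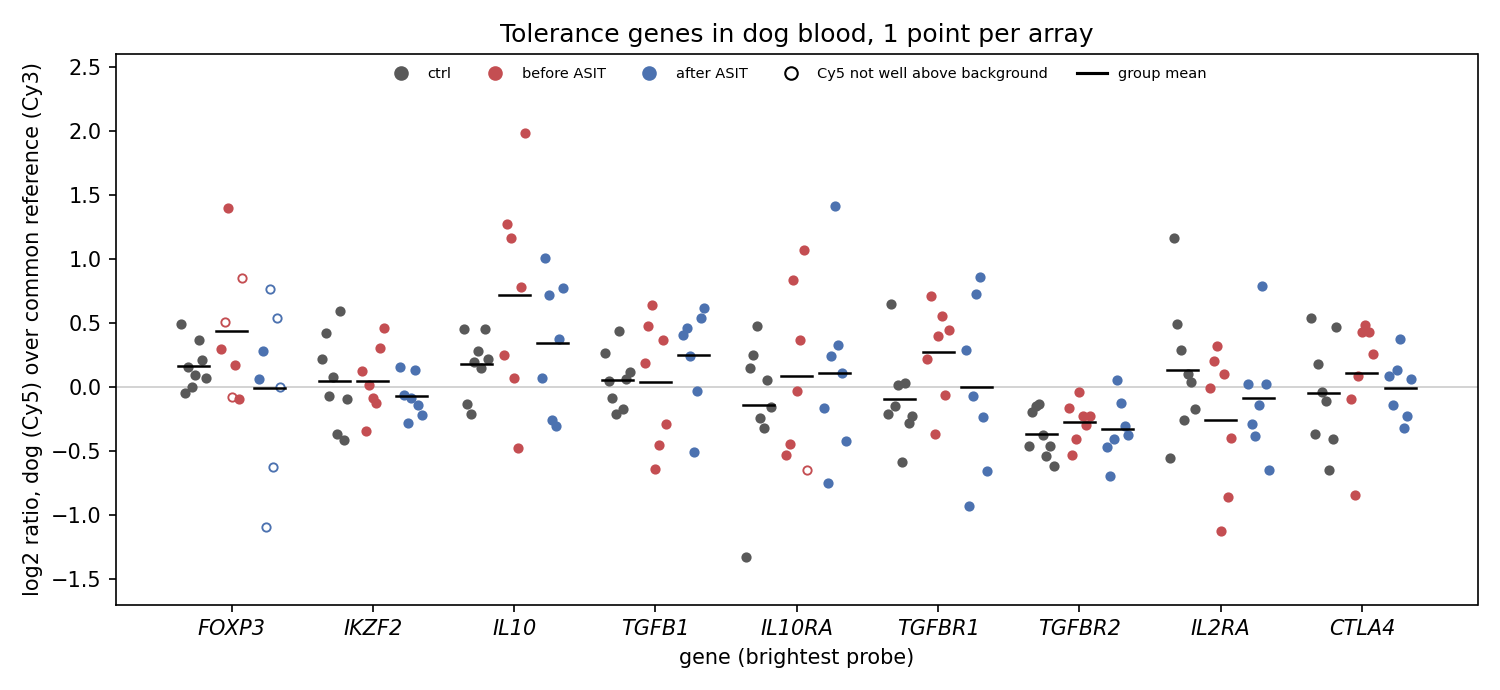
Log2 ratio of the dog (Cy5) over the common reference (Cy3) on the y axis for the brightest probe of each of 9 genes, with 1 point per array for 8 ctrl dogs and 7 cAD patients before and after ASIT; lines are group means and open points are arrays on which Cy5 was not well above background. The groups overlap in every gene, *IL10* reaches 1.99 before ASIT, and 8 of the 9 genes have filled points on all ctrl arrays and on at least 6 of the 7 arrays of each cAD group, the exception being *FOXP3*.

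*FOXP3*, the transcription factor that defines the lineage, was near background on many arrays of the patients. Its probe lies on the minus strand of chromosome X of canFam3.1, from 42344138 to 42344197. All 8 ctrl dogs had Cy5 well above background, compared with 4 of 7 patients before ASIT (dogs 1, 3, 5 and 6) and 2 of 7 after ASIT (dogs 1 and 2). For the Cy3 reference, although the same RNA throughout, the counts were 8, 1 and 2 in the same order. The probe sequence is given because all values of the gene rest on this probe.
FOXP3 probe: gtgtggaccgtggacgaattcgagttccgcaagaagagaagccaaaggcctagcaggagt

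The log2 ratio of *FOXP3* lay between -0.04 and 0.49 in ctrl, with a median of 0.12. Before ASIT it lay between -0.09 and 1.40 with a median of 0.30, and after ASIT between -1.10 and 0.76 with a median of 0.06. The cAD arrays thus spread on both sides of the ctrl range: 3 of 7 before ASIT lay above all ctrl arrays and 2 below, and after ASIT the counts were 2 and 2. The deposited ratio of dog 7 after ASIT was exactly 0, although its processed signals were 3.19 in Cy5 and 3.49 in Cy3 on the log2 scale, so its place beside ctrl is not known. Such exact zeros made up 1.22% to 3.35% of the spots on the ctrl arrays and 11.2% to 23.4% on slides 4 to 6. The difference was 0.27 (SE 0.25) in 0 vs. ctrl, with a limma adjusted p of 0.728 and an exact permutation p of 0.218. It was -0.03 after normexp and loess and -1.77 for Cy5 alone, and the limma adjusted p ran from 0.0161 to 1 over the alternatives tested with limma. In 6 months vs. ctrl it was -0.18 (SE 0.25), with a limma adjusted p of 0.883 and an exact permutation p of 0.488. Here it was -0.07 after normexp and loess, -0.27 without the array of dog 6 after ASIT and -2.49 for Cy5 alone. The limma adjusted p ran from 0.00966 to 1 over the alternatives tested with limma. In 0 vs. 6 months the difference was 0.45 (SE 0.25), with a limma adjusted p of 0.902 and an exact permutation p of 0.192. This last difference was 0.04 after normexp and loess, 0.84 with the slide as a fixed block and 0.99 in dogs 1 to 3 with the dog as block, and the limma adjusted p ran from 0.77 to 1 over the alternatives tested with limma.

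Within dogs, *FOXP3* was lower after ASIT in 5 of 7. The change was -2.49 in dog 3, -0.85 in dog 7, -0.80 in dog 5, -0.24 in dog 1 and -0.22 in dog 2, while it was 0.63 in dog 6 and 0.84 in dog 4. The mean change was -0.45 (SD 1.11, n = 7 dogs; exact sign-flip permutation p = 0.344). Without dog 3, left out after the values were seen, it was -0.11 over 6 dogs (exact sign-flip permutation p = 0.688). Dogs 1 and 2, whose arrays share slide 3, gave a before minus after difference of 0.23, and slide 4 gave 1.75 from 2 arrays before and 1 after. In dog 1 alone was Cy5 well above background on both arrays.

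*IKZF2* encodes Helios, a zinc finger factor of the Ikaros family found in many regulatory T cells. Its brighter probe, on chromosome 37 from 20516262 to 20516321, passed that background criterion in Cy5 on each of the 22 arrays. The values ran from -0.42 to 0.60 in ctrl (median 0.01), from -0.35 to 0.46 before ASIT (median 0.01) and from -0.28 to 0.15 after ASIT (median -0.09). No patient lay outside the range of ctrl at either time, and the difference in 0 vs. ctrl was 0.002 (SE 0.16), with a limma adjusted p of 0.998 and an exact permutation p of 0.989. The 95% interval of that difference ran from -0.33 to 0.33.

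The dimmer *IKZF2* probe, whose 60 bases map over 92878 bases of chromosome 37 and so bridge a gap in the genome, had wider values in the patients. Its ratio averaged 0.04 ± 0.27 in ctrl (SD, n = 8), -0.05 ± 0.50 before ASIT (n = 7) and -0.44 ± 0.44 after ASIT (n = 7). Below all ctrl arrays lay 3 dogs before ASIT, with 1 above, and 3 dogs after ASIT (3, 6 and 7), and on these 3 arrays after ASIT Cy5 was not well above background. Of the 3 before ASIT, dog 2 was at -0.75, while dogs 1 and 5 rounded to -0.306, as did the lowest ctrl array. The counts of arrays with Cy5 well above background were 8 of 8, 6 of 7 and 3 of 7. For the Cy3 reference they were 8, 3 and 3 in the same order. The difference was -0.48 (SE 0.21, limma adjusted p = 0.681) in 6 months vs. ctrl. Over the 22 arrays, with the group means taken off, both *IKZF2* probes correlated by r = 0.54.

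*IL10* encodes the cytokine by which regulatory T cells and other leukocytes dampen inflammation. Its probe is on the minus strand of chromosome 7, where its 60 bases map between 5934601 and 5935589 and thus bridge a gap. Every array had Cy5 well above background for this probe, and Cy3 was so on 8, 5 and 7 arrays of the 3 groups. The sequence is shown because *IL10* had the largest difference from ctrl of the members.
IL10 probe: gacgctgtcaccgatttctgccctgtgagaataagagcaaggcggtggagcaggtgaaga

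In ctrl the log2 ratio of *IL10* was between -0.21 and 0.46, with a median of 0.21. Before ASIT the 7 patients had 0.25, 1.27, 1.16, 0.07, -0.48, 0.78 and 1.99 in the order of dogs 1 to 7. After ASIT the same dogs had 0.07, 1.01, 0.72, -0.26, -0.31, 0.37 and 0.77. Dogs 2, 3, 6 and 7 lay above every ctrl array before ASIT, dogs 2, 3 and 7 did so after ASIT, and dog 5 lay below all of ctrl at both times, as did dog 4 after ASIT. For dogs 6 and 7 before ASIT the Cy3 reference was not well above background, so 2 of the 4 ratios above ctrl, the highest included, have a denominator near background.

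In 0 vs. ctrl the difference of *IL10* was 0.55 (SE 0.28), with a limma adjusted p of 0.467 and an exact permutation p of 0.101. After normexp and loess this difference was 0.02 (limma adjusted p = 0.966), and for Cy5 alone it was -0.88 (limma adjusted p = 0.0712). The spread was wider in the patients, with an SD of 0.83 before ASIT and 0.52 after ASIT against 0.24 in ctrl. In 6 months vs. ctrl the difference was 0.16 (SE 0.28), with a limma adjusted p of 0.908 and an exact permutation p of 0.434. This value was 0.09 without the array of dog 7 after ASIT, -0.01 after normexp and loess and -0.41 for Cy5 alone. In 0 vs. 6 months it was 0.38 (SE 0.29), with a limma adjusted p of 0.934 and an exact permutation p of 0.323.

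Paired within dogs, *IL10* was lower after ASIT in 6 of 7 patients. The change was -1.21 in dog 7, -0.44 in dog 3, -0.41 in dog 6, -0.33 in dog 4, -0.27 in dog 2 and -0.18 in dog 1, and 0.17 in dog 5. The changes of dogs 6 and 7 rest on the arrays with Cy3 near background, and of the other 5 dogs 4 were lower. The mean change was -0.38 (SD 0.42, n = 7), with an exact sign-flip permutation p of 0.0312, the lowest of the 10 such tests run and not adjusted for them. Across all tested probes, with the dog as a block, the limma adjusted p of *IL10* was 0.756. Without dog 7 the mean change was -0.24 over 6 dogs (exact sign-flip permutation p = 0.0625). After normexp correction and loess, chosen after the data were seen for this test, it was -0.03 (exact sign-flip permutation p = 0.844), and for Cy5 without the reference it was 0.47 (exact sign-flip permutation p = 0.281). On slide 3 the before minus after difference was 0.22 and on slide 4 it was -0.10; with the slide as a fixed block it was 0.09 (SE 0.54, limma adjusted p = 1). Over the alternatives tested with limma for *IL10* in 0 vs. 6 months, the limma adjusted p ran from 0.756 to 1.

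*TGFB1*, the gene of the cytokine TGF-β1, was well above background in Cy5 on every array with either probe. The probes map to the plus strand of chromosome 1, from 112642941 to 112643617 and from 112637036 to 112642873. For the brighter probe the ratio ran from -0.21 to 0.44 in ctrl (median 0.05), from -0.64 to 0.64 before ASIT (median 0.18) and from -0.51 to 0.61 after ASIT (median 0.40). Before ASIT 2 patients lay above and 3 below all ctrl arrays, and after ASIT 3 lay above and 1 below. The difference was -0.02 (SE 0.20) in 0 vs. ctrl, with a limma adjusted p of 0.986 and an exact permutation p of 0.93, and 0.19 (SE 0.20) in 6 months vs. ctrl, with a limma adjusted p of 0.838 and an exact permutation p of 0.262. In 6 months vs. ctrl the value was 0.05 after normexp and loess, 0.04 for the mean of both probes and 0.36 for Cy5 alone. Within dogs the brighter probe was higher after ASIT in 5 of 7, by 0.21 on average (SD 0.40, exact sign-flip permutation p = 0.25). The second probe averaged -0.04 ± 0.41 in ctrl (SD, n = 8), -0.21 ± 0.56 before ASIT and -0.15 ± 0.19 after ASIT (n = 7 each), and it was higher after ASIT in 4 of 7 dogs.

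*IL10RA* encodes the ligand-binding chain of the IL-10 receptor. Its probe, on chromosome 5 from 15683264 to 15683323, had Cy5 well above background on all arrays but that of dog 7 before ASIT. The ratio ran from -1.33 to 0.47 in ctrl (median -0.05), from -0.65 to 1.07 before ASIT (median -0.03) and from -0.75 to 1.41 after ASIT (median 0.11). The single array of ctrl dog 1 set the low end of ctrl, the next being at -0.32. The high end, 0.47, was that of ctrl dog 4, whose Cy3 reference was not well above background. Dog 7 after ASIT had the same Cy3 flag. The difference was 0.23 (SE 0.31) in 0 vs. ctrl, with a limma adjusted p of 0.829 and an exact permutation p of 0.485. Without the array of ctrl dog 1, left out after the values were seen, it was 0.06 (limma adjusted p = 0.959), and the limma adjusted p ran from 0.799 to 1 over the alternatives. Within dogs the change ran from -0.96 in dog 6 to 1.44 in dog 4, with 3 dogs higher and 4 lower after ASIT (mean 0.02, SD 0.78; exact sign-flip permutation p = 0.969).

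*TGFBR1* encodes the type I TGF-β receptor, the kinase that passes the signal to SMAD proteins. On its brighter probe, at 56222567 to 56222626 of chromosome 11, the ratio ran from -0.59 to 0.65 in ctrl (median -0.18), from -0.37 to 0.71 before ASIT (median 0.40) and from -0.93 to 0.86 after ASIT (median -0.07). Before ASIT 1 of the 7 patients lay above all ctrl arrays and 0 lay below, and after ASIT the counts were 2 and 2. The difference was 0.37 (SE 0.24) in 0 vs. ctrl, with a limma adjusted p of 0.604 and an exact permutation p of 0.0755. This value was 0.215 after normexp and loess, 0.19 for the mean of both probes and 0.64 for Cy5 alone (limma adjusted p = 0.0241). In the second probe, about 4 kb upstream, the same difference was 0.02 (SE 0.24, limma adjusted p = 0.987), and the correlation of both probes over the 22 arrays, group means taken off, was r = 0.38. Within dogs the brighter probe was higher after ASIT in 4 of 7 (mean -0.27, SD 0.78; exact sign-flip permutation p = 0.469), with the largest changes in dog 2 at -1.64 and dog 7 at -1.10. Its before minus after difference was 0.27. This value was 0.165 without the array of dog 7 after ASIT, 0.115 after normexp and loess and 0.50 with the slide as a fixed block.

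*TGFBR2*, the gene of the type II receptor that binds TGF-β first, varied little between the groups. Its brightest probe, on the minus strand of chromosome 23 from 13888180 to 13888239, lay below 0 on all arrays but that of dog 4 after ASIT. It ran from -0.62 to -0.14 in ctrl (median -0.42), from -0.53 to -0.04 before ASIT (median -0.23) and from -0.69 to 0.06 after ASIT (median -0.38). In 0 vs. ctrl the difference was 0.10 (SE 0.13), with a limma adjusted p of 0.824, an exact permutation p of 0.294 and a 95% interval from -0.17 to 0.37. Within dogs the change lay between -0.30 and 0.10 (mean -0.06, SD 0.15; exact sign-flip permutation p = 0.328). The other *TGFBR2* probes differed from ctrl by at most 0.11 in size at either time. On the third of them the spot of dog 3 before ASIT carried an outlier flag and was left out of the fit and of the paired change, which then rested on 6 dogs.

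*IL2RA* encodes CD25, the alpha chain of the high-affinity IL-2 receptor, carried by regulatory T cells and by activated T cells. Its probes, on the plus strand of chromosome 2 at 29939926 to 29941057 and at 29939465 to 29939967, overlap by 42 bases and are therefore not independent. Within the overlap they differ at 1 base, A39G counted from the 5′ end of the first probe, shown in capitals.
IL2RA probe 1: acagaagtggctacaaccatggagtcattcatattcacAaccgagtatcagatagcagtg
IL2RA probe 2: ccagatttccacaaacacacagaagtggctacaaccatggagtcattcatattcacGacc

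The brighter *IL2RA* probe ran from -0.56 to 1.16 in ctrl (median 0.07), from -1.13 to 0.32 before ASIT (median -0.01) and from -0.65 to 0.79 after ASIT (median -0.14). Dogs 4 and 6 before ASIT, at -1.13 and -0.86, lay below every ctrl dog. The difference was -0.39 (SE 0.26) in 0 vs. ctrl, with a limma adjusted p of 0.601 and an exact permutation p of 0.189, and -0.23 (SE 0.26) in 6 months vs. ctrl, with a limma adjusted p of 0.852 and an exact permutation p of 0.401. The former was -0.18 after normexp and loess and -0.575 for Cy5 alone (limma adjusted p = 0.0648). The latter was -0.13 without the array of dog 7 after ASIT, -0.10 after normexp and loess and -0.88 for Cy5 alone. For the latter, the limma adjusted p ran from 0.0102 to 1 over the alternatives tested with limma. The overlapping probe differed by -0.51 (SE 0.24) in 0 vs. ctrl, with a limma adjusted p of 0.419 and a 95% interval from -1.01 to -0.005, and both probes correlated by r = 0.82 over the 22 arrays with the group means taken off. Within dogs the brighter probe was higher after ASIT in 4 of 7, most in dog 4 at 0.99 (mean 0.17, SD 0.69; exact sign-flip permutation p = 0.531). The before minus after difference was -0.17, but 0.13 with the slide as a fixed block, 0.39 in dogs 1 to 3 with the dog as block and 0.31 for Cy5 alone.

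*CTLA4* encodes an inhibitory receptor that competes with CD28 for CD80 and CD86. Both of its probes had Cy5 well above background on all 22 arrays. The brighter one, on chromosome 37 from 12653740 to 12653799, ran from -0.65 to 0.54 in ctrl (median -0.07), from -0.84 to 0.48 before ASIT (median 0.26) and from -0.32 to 0.38 after ASIT (median 0.06). A single array, that of dog 2 before ASIT, lay outside the range of ctrl. The difference was 0.15 (SE 0.21) in 0 vs. ctrl, with a limma adjusted p of 0.824 and an exact permutation p of 0.511. Within dogs it was higher after ASIT in 3 of 7 (mean -0.11, SD 0.51; exact sign-flip permutation p = 0.578). The before minus after difference was 0.11, but -0.21 with the slide as a fixed block and -0.31 in dogs 1 to 3 with the dog as block. Within slide 3 it was -0.44 and within slide 4 it was 0.13. The second probe, about 1 kb upstream, averaged -0.22 ± 0.46 in ctrl (SD, n = 8), -0.24 ± 0.60 before ASIT and -0.56 ± 0.52 after ASIT (n = 7 each), and the probes correlated by r = 0.35 with the group means taken off.

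The probe described as lymphocyte-activation gene 3, a checkpoint receptor that binds MHC class II, had Cy5 well above background on all 22 arrays. It averaged -0.16 ± 0.34 in ctrl (SD, n = 8), -0.37 ± 0.30 before ASIT and -0.11 ± 0.24 after ASIT (n = 7 each). The difference in 0 vs. 6 months was -0.26 (SE 0.17), with a limma adjusted p of 0.934 and an exact permutation p of 0.105. Within dogs it was higher after ASIT in 6 of 7, dog 2 being the other, by 0.26 on average (SD 0.34; exact sign-flip permutation p = 0.109). The before minus after difference was 0.14 on slide 3 and -0.48 on slide 4.

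**Figure D2:**
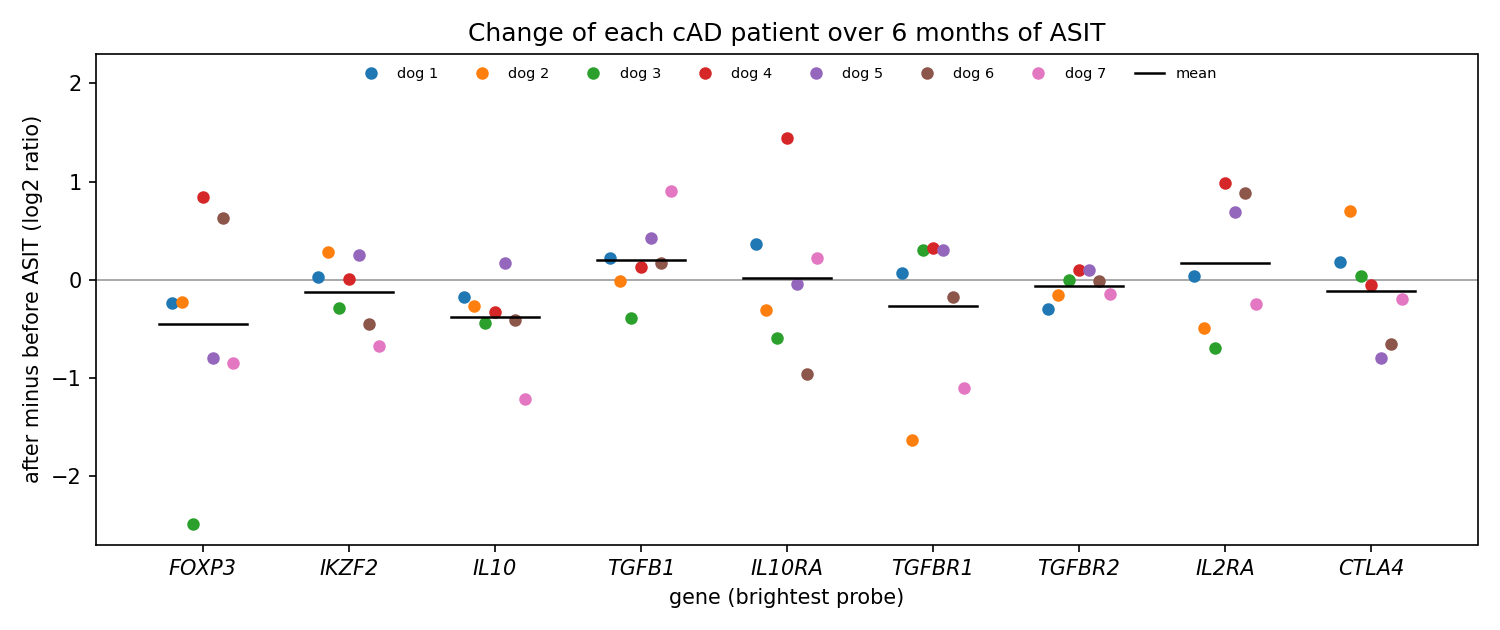
Change of the log2 ratio from before to after ASIT on the y axis in each of the 7 cAD patients, 1 colour per dog, for the brightest probe of 9 genes, with the mean as a line. In *IL10* 6 of 7 dogs lie below 0, *TGFBR2* stays between -0.30 and 0.10, and *FOXP3* spans from -2.49 to 0.84, both ends resting on arrays on which neither channel was well above background (dog 3 after ASIT, dog 4 at both times).

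The comparisons with ctrl gave other counts without the common reference. With log2 Cy5 alone, scaled to the 75th percentile of each array, limma called 4 of the 16 member probes in 0 vs. ctrl, where 45.2% of all tested probes were called and the median of all tested probes shifted by -0.44. These were *FOXP3* at -1.77, the dimmer *IKZF2* probe at -1.31, the second *IL2RA* probe at -0.75 and the brighter *TGFBR1* probe at 0.64. In 6 months vs. ctrl it called 6 of them, beside 41% of all tested probes and a median shift of -0.37. These were *FOXP3* at -2.49, the dimmer *IKZF2* probe at -1.96, the *IL2RA* probes at -0.88 and -0.85, the second *TGFBR1* probe at -0.61 and the second *TGFB1* probe at 0.52. The Cy3 channel holds the same reference RNA on every array, and, treated alike after the data were seen, it differed between the same groups of arrays as well. It had 9 of the 16 member probes called in 0 vs. ctrl, where 64% of all tested probes were, and 7 in 6 months vs. ctrl, where 57% were. For *FOXP3* the Cy3 difference was -2.03 in 0 vs. ctrl and -2.28 in 6 months vs. ctrl. For *IL10* in 0 vs. ctrl it was -1.42 in Cy3 (SE 0.33, limma adjusted p = 0.00146) and -0.88 in Cy5 (SE 0.39, limma adjusted p = 0.0712), values below ctrl in both channels beside a ratio of 0.55. Over the alternatives tested with limma for *IL10* in 0 vs. ctrl, Cy3 alone not among them, the limma adjusted p ran from 0.0712 to 1.

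Further genes around the members were read from 5 pathway lists, of which 44 of 53 genes had a probe and all 44 were tested. In the 3 comparisons 0 passed limma after adjustment, and the methods' test called 0 of all tested probes. That test was run here on the scanner ratios with the filter used for limma. The study's own filters, by flag and by coefficient of variation, were not applied, so its analysis was not repeated. The study itself reported differentially expressed transcripts in all 3 comparisons. In 0 vs. ctrl 22 of the 44 were higher in the patients, and 0 higher and 5 lower genes had an unadjusted limma p under 0.05, beside 11.7% of all tested probes. In 6 months vs. ctrl there were 2 higher and 2 lower (7.2% of all tested probes), and in 0 vs. 6 months 0 higher and 1 lower (5.96%). The median difference of the 44 genes was -0.001, -0.01 and -0.03 in the 3 comparisons, while that of all tested probes was -0.02, -0.04 and -0.01. The genes of these lists named below were picked by their unadjusted limma p on the same arrays, so their values are a description.

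Of the TGF-β activation and signalling list, 12 of 14 genes were tested, with 4 higher in 0 vs. ctrl and 6 in 6 months vs. ctrl. *SMAD2*, which carries the signal of the TGF-β receptors to the nucleus, averaged 0.54 ± 0.36 in ctrl (SD, n = 8), 0.16 ± 0.37 before ASIT and 0.15 ± 0.15 after ASIT (n = 7 each). After ASIT its values ran from -0.08 to 0.35, whereas ctrl ran from 0.19 to 1.37, so the groups still overlapped. The difference was -0.38 (SE 0.17) in 0 vs. ctrl, with a limma adjusted p of 0.372, and -0.40 (SE 0.17) in 6 months vs. ctrl, with a limma adjusted p of 0.681. *TGFBR3*, a co-receptor for TGF-β, was at -0.54 ± 0.68 in ctrl (SD, n = 8), 0.12 ± 1.06 before ASIT and 0.52 ± 0.95 after ASIT (n = 7 each). Its difference was 0.66 (SE 0.43) in 0 vs. ctrl, with a limma adjusted p of 0.595. In 6 months vs. ctrl it was 1.06 (SE 0.43), with a limma adjusted p of 0.681.

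In the list of regulatory T cell transcription and adenosine genes, 11 of 13 were tested, 8 of them higher in 0 vs. ctrl and 7 higher in 6 months vs. ctrl. *PRDM1*, which encodes the repressor BLIMP-1, differed by -0.37 (SE 0.17) in 0 vs. ctrl, with a limma adjusted p of 0.397. In 6 months vs. ctrl it differed by -0.33 (SE 0.17, limma adjusted p = 0.681). *ENTPD1*, the gene of the ATP-splitting enzyme CD39, differed by 0.39 (SE 0.18) in 6 months vs. ctrl, with a limma adjusted p of 0.681. Before ASIT it already differed from ctrl by 0.29 (SE 0.18, limma adjusted p = 0.564). Its before minus after difference was -0.11 (SE 0.18, limma adjusted p = 0.94).

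Of the costimulation and checkpoint list, 10 of 12 genes were tested, and 3 were higher in each comparison with ctrl. *CD80*, a ligand of CTLA4, differed by -0.41 (SE 0.17) in 6 months vs. ctrl, with a limma adjusted p of 0.681. In 0 vs. ctrl it differed by -0.11 (SE 0.17, limma adjusted p = 0.852). In the pathway lists 3 genes had an unadjusted limma p under 0.05 but fall outside the rule for named genes, since their Cy5 was not well above background on all arrays, and they are named after their values were seen. *TGFB2*, the gene of TGF-β2 (13 of 22 arrays above background), differed by -0.91 (SE 0.42, limma adjusted p = 0.391) in 0 vs. ctrl and by -1.08 (SE 0.43, limma adjusted p = 0.674) in 0 vs. 6 months. *ITGB8*, an integrin gene whose product takes part in TGF-β activation (12 of 22 arrays), differed by -0.79 (SE 0.32, limma adjusted p = 0.309) in 0 vs. ctrl. *CD274*, the gene of PD-L1 (18 of 22 arrays), is the other. It ran from -0.44 to 0.60 in ctrl (median -0.22), from -1.62 to -0.12 before ASIT (median -1.05) and from -0.96 to -0.05 after ASIT (median -0.59), with Cy5 well above background on 8 of 8, 5 of 7 and 5 of 7 arrays. Its difference was -0.84 (SE 0.21) in 0 vs. ctrl, with a limma adjusted p of 0.124. In the IL-10 and IL-35 list 6 of 8 genes were tested and 4 were higher in 0 vs. ctrl, with differences from -0.23 to 0.26. In the IL-2 list 5 of 6 were tested and 3 were higher, with differences from -0.15 to 0.34.

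Lists of blood cell markers were read beside the members, and 0 of their genes passed limma after adjustment in any of the 3 comparisons, nor the methods' test. At an unadjusted limma p under 0.05 there was 1 platelet gene in 0 vs. ctrl (lower), 1 monocyte, 1 eosinophil (both higher) and 1 cytotoxic gene (lower) in 6 months vs. ctrl, and 1 T cell gene in 0 vs. 6 months (higher before ASIT). The shares of all tested probes at that limit were 11.7%, 7.2% and 5.96%. The mean ratio of 13 tested T cell genes was -0.07 ± 0.25 in ctrl (SD, n = 8), 0.02 ± 0.37 before ASIT and -0.23 ± 0.17 after ASIT (n = 7 each). Of these genes, 11 were higher before than after ASIT, with a median difference of 0.30 and of 0.22 with the slide as a fixed block; within slide 3 the difference of the list mean was -0.03 and within slide 4 it was 0.57. The T cell receptor genes *CD3D*, *CD3E* and *CD3G* had group means of -0.20, 0.07 and -0.27 in ctrl, of -0.06, 0.27 and -0.29 before ASIT and of -0.32, -0.16 and -0.60 after ASIT. *CD4* had means of 0.24 in ctrl, 0.34 before ASIT and 0.57 after ASIT. The Cy5 signal of these 4 genes was well above background on all 22 arrays. The part of T cell content in the values of the members was not tested.

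The B cell genes gave a median difference of 0.23 in 0 vs. 6 months over 7 genes, 0.07 with the slide as a fixed block and -0.13 for the list mean within slide 3 and 0.62 within slide 4, with *MS4A1* and *CD79A* at -0.08 and -0.14 in ctrl and at -0.82 and -0.40 after ASIT. For 7 cytotoxic and NK cell genes it was 0.31, but -0.23 with the slide as a fixed block; *GZMA*, *GZMK* and *PRF1* differed by 0.34, -0.35 and 0.10 in 0 vs. ctrl. All 9 monocyte genes were lower before than after ASIT, with differences from -0.32 to -0.001 (median -0.15, and -0.10 with the slide as a fixed block). The list mean differed by -0.08 within slide 3 and by -0.23 within slide 4. In 0 vs. ctrl *CD14*, *CSF1R* and *CD68* differed by -0.21, -0.10 and 0.46. For 11 neutrophil genes the median was 0.04 in 0 vs. ctrl, with *CXCR2*, *CSF3R* and *MMP8* at 0.04, 0.004 and -0.23.

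Among 3 eosinophil genes, *CCR3*, *IL5RA* and *ALOX15* differed by -0.04, 0.49 and -0.003 in 0 vs. ctrl. The 7 erythroid genes had a median difference of 0.33 in 0 vs. ctrl and 0.54 in 6 months vs. ctrl, with *ALAS2* and *EPB42* at 0.69 and 0.27 in the first. Each of the 6 tested platelet genes was lower in the patients at both times, with a median of -0.47 in 0 vs. ctrl and -0.10 in 6 months vs. ctrl, and *ITGA2B*, *ITGB3* and *GP1BA* were at -0.40, -0.54 and -0.55 in the first.

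Likeness to other named genes was read over the 22 arrays after the group means were taken off, as a description. For each member that was searched, 12831 to 12833 probes were compared, and the nearest genes are those among these probes. Arrays of a slide share its effects. *IL10* was most like *SREBF2* (r = 0.93, rho = 0.97) and *CELA3B* (r = 0.93, rho = 0.91). *TGFB1* was most like *GALK1* (r = 0.92, rho = 0.91) and *DTX3* (r = 0.92, rho = 0.89), and *TGFBR1* like *REEP3* (r = 0.93, rho = 0.93) and *GABPB1* (r = 0.93, rho = 0.90). For *IL10RA* the nearest were *GLB1* (r = 0.89, rho = 0.90) and *CIAO1* (r = 0.87, rho = 0.90), and for *IL2RA* *FCHO2* (r = 0.89, rho = 0.91) and *ATP2C1* (r = 0.88, rho = 0.92). *TGFBR2* was most like *SCD* (r = 0.86, rho = 0.90) and *FUT8* (r = 0.86, rho = 0.78), *CTLA4* like *APEH* (r = 0.85, rho = 0.82) and *DNAJC19* (r = 0.83, rho = 0.84), and *IKZF2* like *KAT2B* (r = 0.84, rho = 0.82) and *ITGA4* (r = 0.83, rho = 0.83). *FOXP3* was not searched, since fewer than 20 arrays had its Cy5 signal well above background.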

How the data were processed

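Blood RNA of 8 healthy dogs and, at both times, of 7 patients had been hybridized to 22 two-channel Agilent canine arrays. The authors deposited the scanner output, with the raw intensity and the processed intensity of each spot, the latter Lowess-normalized by Feature Extraction, and with a log10 ratio per spot. Version 10.10.1.1 of that software stands in the headers and 10.7.3.1 in the labels. In the series matrix, the deposited log10 ratios equalled those of the scanner files on the cAD arrays and correlated with them by r = 0.711 to 0.844 on the ctrl arrays.

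Ratios were converted to log2 and averaged over the spots of a probe, without 208 spots that the software marked as outliers. Tested were 38290 of 43603 probes, those whose Cy5 signal exceeded background clearly on 7 or more arrays. All 16 member probes were among them. The 3 groups were fitted together with limma 3.58.1 (R 4.3.3, with the data.table package at 1.17.8), without a block for the dog, and adjusted over all tested probes. Figures were drawn with Python 3.11.15, matplotlib 3.10.9 and pandas 2.3.3. For the brightest probe of each gene, and for the probe described as lymphocyte-activation gene 3, exact permutation tests, 2-sided, compared the group means (30 tests) and exact sign-flip permutation tests over 7 dogs, also 2-sided, the paired values (10 tests); 18 more permutation tests on pathway genes picked by their limma p are not reported, since they reuse the values that picked them. The code was tested on simulated data. The number of arrays and the signal over background limit the precision.

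Arrays were paired by the dog number in the labels, which marks the same animal. The deviations from the group mean correlated by -0.04 to 0.56 between both arrays of a dog and by -0.44 to 0.47 between different dogs, and 4 of 7 dogs correlated best with themselves.

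The members and lists were chosen with earlier results of these data known. All members were named. From the pathway lists, the rule for named genes took at most 3 higher and 3 lower per comparison. These had an unadjusted limma p under 0.05 and Cy5 well above background on all 22 arrays. Of each marker list, 2 or 3 of the first 3 tested genes were named, and *CD4* was added to those of the T cell list. Likeness was searched for members whose Cy5 signal was well above background on 20 arrays or more. Alternatives were the series matrix, loess after normexp (offset 50), the ratio of processed signals, Cy5 alone, no filter, a strict filter, the methods' test (one-way, then Tukey), slide or scan as a random block, dog 6 or dog 7 left out after ASIT, the mean of a gene's probes and, for 0 vs. 6 months, the dog, the slide, or dogs 1 to 3 alone with the dog as block. The added LAG3 probe and the alternatives for the paired changes of IL10 and FOXP3 and for IL10RA without ctrl dog 1 were chosen after seeing the data. Genome positions (canFam3.1) were taken from the probe annotation; exon and UTR placement was not analysed here.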

Additional observations from a re-analysis of the deposited data

Results flagged for a closer look

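In 68 sets of values (3 groups and the paired change for each of the 16 member probes and the probe described as lymphocyte-activation gene 3), 2 held a value that stood far from the others by Dixon's criterion, which chance alone meets in about 1 of 20. In *IL10RA*, the array of ctrl dog 1 was at -1.33, while the next lowest of the 8 ctrl arrays was at -0.32, a gap of 0.56 of the whole range. In the second *TGFBR1* probe, the change after minus before ASIT was 1.67 in dog 4, and the next highest of the 7 dogs was at 0.22, a gap of 0.58 of the range. The arrays of dog 4 lay on slides 4 and 6, and the part of the slide was not tested in a single dog.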

How the results depend on the processing

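Alternatives were run for the counts of probes and of member probes past the adjusted threshold, for the difference of each gene's brightest probe and for the paired changes of *IL10* and *FOXP3*, while the lists were read with slide and dog blocks in 0 vs. 6 months and the further probes with each channel alone, and the cause of any difference between them was not tested. In 0 vs. ctrl, limma called 16 probes; it called 0 after normexp and loess, with the strict filter, with slide as random block and with scan as random block, as did the methods' test, 9 with the series matrix, 20 with the processed ratio, 17 without filter, 14 with the array of either dog 6 or dog 7 after ASIT left out, and 17290 with Cy5 alone, 4 of them member probes. In 6 months vs. ctrl, Cy5 alone called 15717 probes and 6 member probes, where all other alternatives called 0. In 0 vs. 6 months, 1 probe was called without filter and 0 to 1 with an array left out, and 0 members were called by any alternative, the dog as replicate block included. The sign of a member's difference reversed in 9 of 103 alternatives in 0 vs. ctrl, 6 of 102 in 6 months vs. ctrl and 12 of 129 in 0 vs. 6 months. In 0 vs. ctrl these were Cy5 alone for *CTLA4* (-0.073), *FOXP3* (-1.77), *IL10* (-0.879), *IL10RA* (-0.04) and *TGFB1* (0.294), normexp and loess for *FOXP3* (-0.028), and for *IKZF2* slide (-0.008) or scan (-0.005) as random block and the mean of its probes (-0.043). In 6 months vs. ctrl they were Cy5 alone for *CTLA4* (-0.202) and *IL10* (-0.406), normexp and loess for *IL10* (-0.01), and the mean of the probes for *CTLA4* (-0.15), *TGFBR1* (-0.043) and *TGFBR2* (-0.037). In 0 vs. 6 months they were Cy5 alone for *IL10* (-0.473) and *IL2RA* (0.305), normexp and loess for *IL10RA* (0.009), slide as random block for *IL10RA* (0.005), slide as fixed block for *CTLA4* (-0.213), *IL10RA* (0.046) and *IL2RA* (0.127), and dogs 1 to 3 with the dog as replicate block for *CTLA4* (-0.308), *IKZF2* (-0.008), *IL10RA* (0.178), *IL2RA* (0.385) and *TGFB1* (0.063). Signal over background limits what can be read for *FOXP3* and the dimmer *IKZF2* probe in the patients, and the strict filter kept 10 of the 16 member probes and gave no value for *FOXP3*, *IL10* and *IL10RA*. Without a sign change, normexp and loess gave 0.019 for *IL10* in 0 vs. ctrl and 0.038 for *FOXP3* in 0 vs. 6 months. The paired change of *FOXP3* ran from -0.663 to -0.107 with each dog left out in turn, and *IL10RA* in 0 vs. ctrl was 0.06 without the array of ctrl dog 1, both chosen after the data were seen. The paired change of *IL10* was -0.381; with each dog left out in turn it ran from -0.472 to -0.243, with an exact sign-flip permutation p of 0.0625 in 6 of the 7 cases and of 0.0312 without dog 5. It was -0.028 after normexp and loess, -0.381 with the processed ratio and 0.473 with Cy5 alone, all chosen after the data were seen.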
